A study of Mus musculus with 27 samples.

Results

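The CC chemokine genes Ccl2, Ccl7, Ccl12, Ccl8, Ccl3, Ccl4, Ccl5, Ccl17 and Ccl22 were followed in mouse bone marrow-derived macrophages (BMDM), macrophages grown from marrow precursors, that were exposed to ligands of Toll-like receptors (TLRs). The members were all array probes that carry any of these names, which gave 9 genes of 32138 gene names on the array, each measured by 1 probe. The cells came from female C57BL/6 mice aged 6 to 8 weeks and spent 7 days in medium conditioned by L929 cells, and this source was shared by every group. Naive BMDM received no ligand (3 arrays). Acute BMDM received 1 ligand for 4 h, and re-stimulated BMDM received a ligand for 24 h, were washed, and then received the same ligand for another 4 h. LPS, the TLR4 ligand from bacterial outer membranes, and Pam3CSK4, a synthetic lipopeptide seen by TLR2, were labelled as 100 ng/ml. Poly(I:C), a double-stranded RNA mimic seen by TLR3, was labelled as 10 µg/ml, and CpG, an unmethylated DNA oligonucleotide seen by TLR9, as 100 µM, although the methods of the study give a lower CpG dose. Acute LPS, acute and re-stimulated CpG, re-stimulated Pam3CSK4, and acute and re-stimulated Poly(I:C) had 3 arrays each. Re-stimulated LPS and acute Pam3CSK4 had 2 each, because the third array of both groups carried no value in the deposited table, and 25 arrays were used in all. The methods of the study describe replicates both as cultures of pooled marrow and as separate mice, so the p-values below measure the spread between these samples, part of which may be technical.

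CC chemokines are small secreted proteins that guide leukocytes through G protein-coupled receptors. Ccl2, Ccl7, Ccl12 and Ccl8 belong to the monocyte chemoattractant proteins, most of which act through CCR2, Ccl3, Ccl4 and Ccl5 attract monocytes and T cells, and Ccl17 and Ccl22 share CCR4, a receptor of T cell subsets. In macrophages many of them are immediate outputs of TLR signalling through NF-κB, and several, Ccl5 and Ccl12 among them, are also driven by type I interferon and IRF factors. A macrophage that answers a repeated TLR signal more weakly is called tolerant, and the comparison of re-stimulated with acute BMDM asks which of these genes then respond less.

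The probes lie in the gene clusters known for this family. In mm9 coordinates from the array files, the probes of Ccl2 (chr11:81850650-81850709), Ccl7 (chr11:81860656-81860715), Ccl12 (chr11:81916764-81916823) and Ccl8 (chr11:81930108-81930167) lie in this order on the plus strand. Those of Ccl5 (chr11:83339296-83339355, minus strand), Ccl3 (chr11:83461358-83461417, minus strand) and Ccl4 (chr11:83478052-83478111, plus strand) lie further along chromosome 11. Ccl22 (chr8:97274709-97274768) and Ccl17 (chr8:97335770-97335829) lie on the plus strand of chromosome 8. The Ccl2 probe was spotted 10 times on each array and the others 1 time.

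Promoter windows of 250 bases before the transcript start were at hand from RefSeq (GRCm38.p6) for 5 of the 9 members, namely Ccl12, Ccl8, Ccl3, Ccl17 and Ccl22. The windows of Ccl12 (chr11:82101595-82101844, plus strand) and its neighbour Ccl8 (chr11:82114935-82115184, plus strand) are shown because these genes neighbour each other and were both called with acute LPS, while with acute CpG Ccl12 was called and Ccl8 was not. Capitals mark the runs of at least 8 bases that both windows hold on the same strand.
Ccl12: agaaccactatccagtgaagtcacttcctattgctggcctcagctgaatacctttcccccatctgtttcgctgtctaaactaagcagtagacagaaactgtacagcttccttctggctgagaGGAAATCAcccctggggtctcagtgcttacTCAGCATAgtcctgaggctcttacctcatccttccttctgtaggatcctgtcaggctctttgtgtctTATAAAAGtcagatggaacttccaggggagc
Ccl8: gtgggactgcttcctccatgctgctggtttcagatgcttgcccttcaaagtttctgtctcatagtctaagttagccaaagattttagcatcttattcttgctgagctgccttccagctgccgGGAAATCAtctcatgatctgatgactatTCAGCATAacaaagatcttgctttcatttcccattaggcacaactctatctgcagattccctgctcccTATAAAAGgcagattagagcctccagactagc
The 3 shared runs begin 128, 98 and 31 bases before the start of Ccl12 and 128, 100 and 32 bases before that of Ccl8. On either strand, GGAAATCA is held by 0.983% of the 32851 windows of this length, TCAGCATA by 0.481% and TATAAAAG by 1.51%.

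The window of Ccl17 (chr8:94810203-94810452, plus strand) is shown because it held the only match of the 5 windows to TTC and GAA spaced by 4 bases. This is a STAT-type palindrome, and palindromes with another spacing were not searched. Capitals mark the match, at 154 to 145 bases before the start.
Ccl17: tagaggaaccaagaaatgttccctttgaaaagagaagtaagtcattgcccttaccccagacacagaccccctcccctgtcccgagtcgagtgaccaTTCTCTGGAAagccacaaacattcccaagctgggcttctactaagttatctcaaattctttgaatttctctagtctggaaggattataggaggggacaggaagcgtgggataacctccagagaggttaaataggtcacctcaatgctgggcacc
On both strands of the 5 windows, the 10-base NF-κB consensus (in 3.9% of all windows), GAAA and GAAA spaced by 2 bases, as in interferon response elements (2.98%), and TGANTCA of AP-1 (6.75%) had no match. The STAT-type letters with the spacing of 4 bases (5.85%) matched in Ccl17, and TATAAA (12.4%), which lies within the run TATAAAAG above, in Ccl12 and Ccl8.

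The labelled cell type was checked against marker genes before the comparisons. All 8 macrophage markers were well above background on all 25 arrays, with Csf1r, the receptor of the macrophage growth factor, between 16.96 and 18.30 on the log2 scale and the log2 of the summed intensity of the 8 between 19.01 and 19.78. Of the neutrophil markers, between 2 and 6 of 6 were well above background on an array, and their log2 sum ranged from 11.68 to 17.99. It was 16.10, 16.67 and 12.30 in the 3 naive replicates and 11.68, 12.17 and 12.28 in acute LPS, while both used arrays of re-stimulated LPS were at 15.81 and 15.84. In acute CpG it was 17.24, 17.99 and 12.55, in acute Poly(I:C) 16.64, 17.67 and 12.43, and in acute Pam3CSK4 17.30 and 12.70. In re-stimulated CpG it was 15.76, 16.28 and 14.94, and in re-stimulated Poly(I:C) 16.04, 16.95 and 12.74. Replicate 3 was thus the lowest of every group other than acute LPS that had it, although re-stimulated Pam3CSK4 spanned only 15.73 to 16.00. On replicate 3 of re-stimulated Pam3CSK4 and CpG the sum was mostly S100a8 (15.66 and 14.83). There S100a9 was only 5.93 and 5.65, and Ly6g, Mpo and Ltf were not well above background. On all acute LPS arrays and replicate 3 of naive BMDM and the other acute groups it was mostly Elane, which ranged only from 11.08 to 12.73 over all arrays. The most abundant neutrophil gene on 14 arrays was S100a9, a calcium-binding granulocyte protein, at 15.63, 16.20 and 4.57 in naive BMDM and 3.29, 2.90 and 2.69 in acute LPS. Among dendritic cell markers, Xcr1 was above background on 0 of 25 arrays, Cd209a on 1, Clec9a on 3 and Flt3 on 10, and Zbtb46 on 24. The dendritic sum was 5.72, 6.01 and 5.50 in naive BMDM and highest in acute LPS, at 9.66, 10.62 and 10.70. On each acute LPS array its most abundant gene was Zbtb46, and only 1 or 2 of the 5 dendritic genes were well above background. Of the T cell markers Cd3e and Cd4 had signal on all 25 arrays but Cd3d and Cd8a on 1 each and Cd3g on 2.

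**Figure D1:**
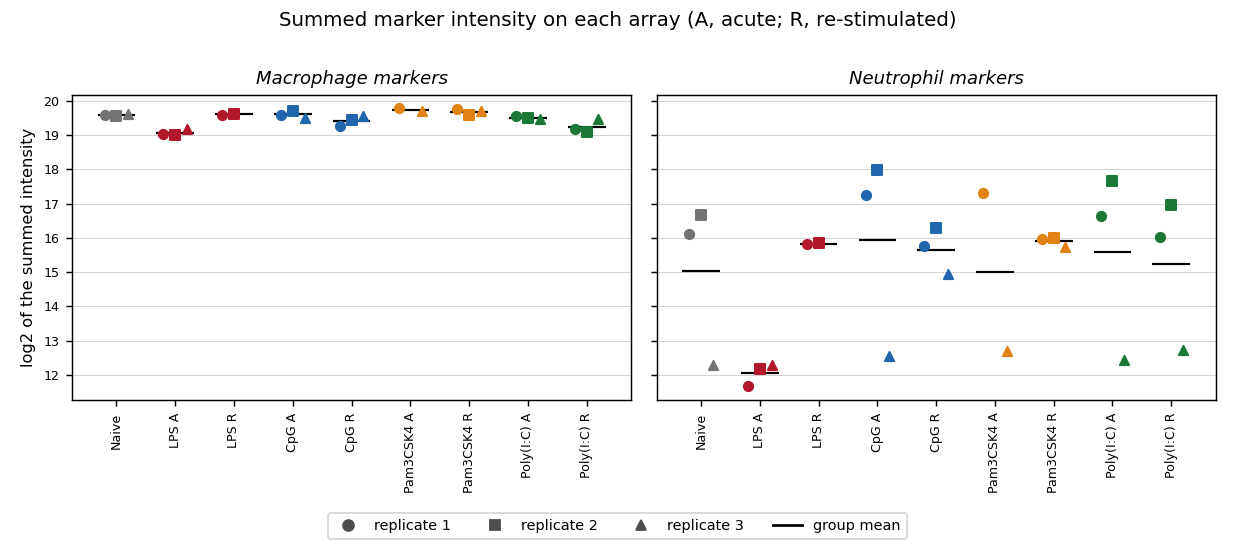
Log2 of the summed deposited intensity of 8 macrophage markers (left) and 6 neutrophil markers (right) on each of the 25 arrays, by group, with a symbol for each replicate and a bar for the group mean. Macrophage sums stay between 19.01 and 19.78, whereas neutrophil sums lie between 11.68 and 12.74 on all 3 acute LPS arrays and on replicate 3 of naive, acute CpG, acute Pam3CSK4 and both Poly(I:C) groups.

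Arrays stood apart in further ways. Every group other than acute LPS lay on 3 shared slides of 1 scan day, with replicate numbers matching slides, whereas the 3 acute LPS arrays lay on 3 slides of their own, were scanned on 2 other days and were read with an earlier design file. Slide and scan day therefore cannot be told apart from acute LPS, and every comparison with acute LPS below carries this limit. On naive replicate 3, 74.9% of spots were well above background, against 43.1% to 55.0% on the other used arrays. Since these are bulk samples, fewer cells of a type and less RNA per cell cannot be told apart, and the part of cell makeup in the results below was not tested.

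In the acute response, LPS raised all 8 members that could be tested, CpG raised 5 of 8 and Poly(I:C) 4 of 7, each at an adjusted p under 0.05 and at least 1.5-fold. No member fell. Leaving out 1 array gave 2 to 5 members for CpG and 2 to 5 for Poly(I:C), the lowest counts being without acute replicate 1 (0.532% and 0.809% of all probes called) or acute replicate 2 (0.389% and 0.65%) of each, and scaling to a common median gave 7 for Poly(I:C) beside 5.05%. Of all probes tested with LPS, 26.5% were called and 13.2% were called higher, against 5.72% and 3.09% with CpG and 6.03% and 3.8% with Poly(I:C). Every acute array lay above every naive array for 22.8% of all probes with LPS, 12.9% with CpG, 16% with Pam3CSK4 and 12% with Poly(I:C). The members tested had a median log2 difference of 4.95 with LPS, of 4.14 with CpG and of 3.46 with Poly(I:C), while the median of all probes tested lay at -0.01, -0.07 and -0.10. For Pam3CSK4 the limma fit of 2 groups called 0% of all probes and 0 of 7 members, with 3458 of 27843 probes and 4 members at an unadjusted p under 0.05.

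**Figure D2:**
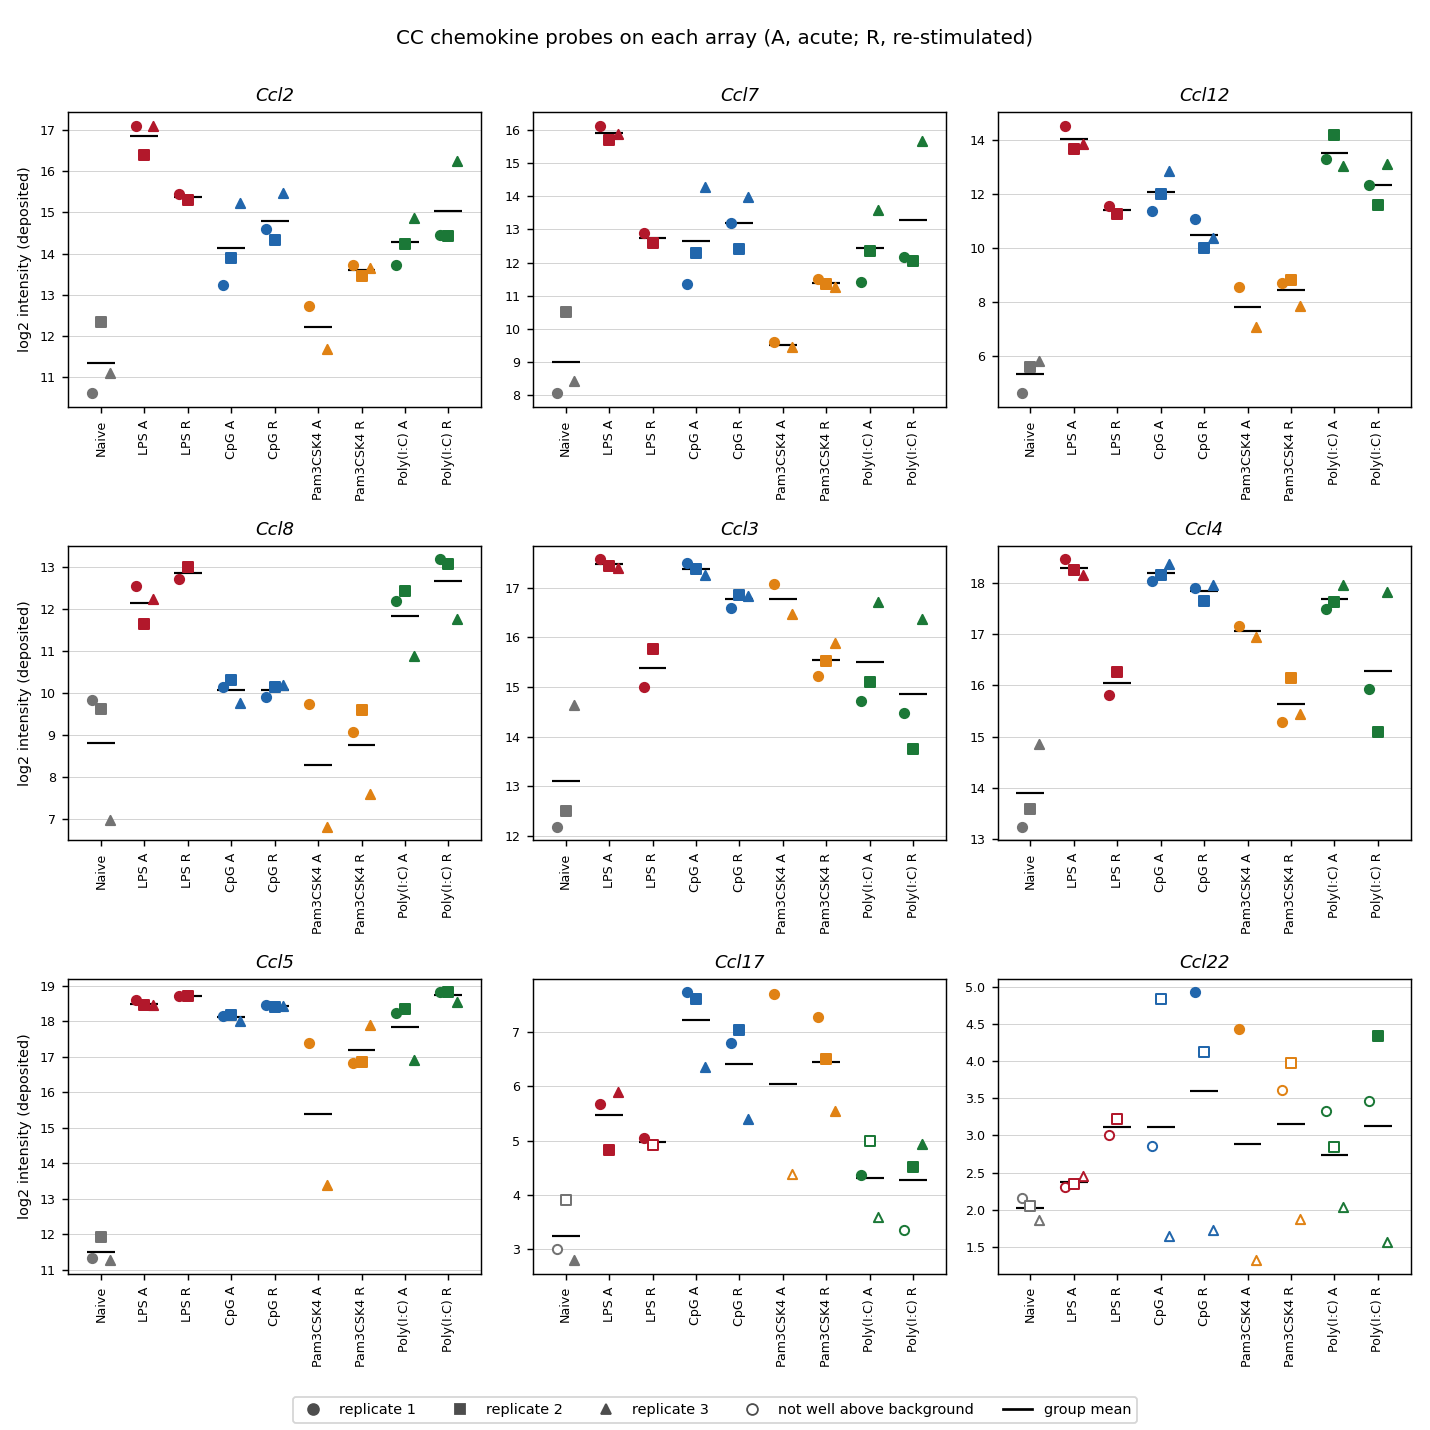
Deposited log2 intensity (y axis, separate scale for each gene) of the 9 CC chemokine probes on each of the 25 arrays, by group (x axis), with a symbol for each replicate, open where the probe was not well above background, and a bar for the group mean. Ccl12, Ccl5 and Ccl4 lie above all naive arrays in every stimulated group, Ccl8 does so in both LPS groups, both Poly(I:C) groups and re-stimulated CpG, and Ccl22 is mostly open symbols.

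Among the monocyte chemoattractant proteins, Ccl12 gave the largest acute differences. Its log2 intensity was 4.62, 5.60 and 5.84 in naive BMDM, 14.55, 13.70 and 13.87 in acute LPS, 11.40, 12.03 and 12.85 in acute CpG, and 13.33, 14.20 and 13.07 in acute Poly(I:C). None of these groups overlapped with naive BMDM. Ccl12 rose by 8.68 ± 0.39 (SE) with LPS (adjusted p = 0.000229), by 6.74 ± 0.48 with CpG (adjusted p = 0.00431) and by 8.18 ± 0.44 with Poly(I:C) (adjusted p = 0.00141), which is 412-, 107- and 290-fold. Within each shared slide the CpG difference was 6.78, 6.42 and 7.01 and the Poly(I:C) difference 8.71, 8.60 and 7.23.

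Ccl2, the main CCR2 ligand and monocyte attractant, was already well above background in naive BMDM, at 10.61, 12.34 and 11.10. It stood at 17.10, 16.39 and 17.08 in acute LPS, at 13.25, 13.89 and 15.23 in acute CpG and at 13.73, 14.23 and 14.86 in acute Poly(I:C), with no overlap with naive BMDM. Ccl2 rose by 5.51 ± 0.47 with LPS (45.4-fold, adjusted p = 0.00116) and by 2.92 ± 0.52 with Poly(I:C) (7.58-fold, adjusted p = 0.0336). The CpG difference of 2.77 ± 0.65 missed the threshold (adjusted p = 0.0664) in the fit of 2 groups and passed it in a fit of all 9 groups (adjusted p = 0.00191), where 15.2% of all probes were called for CpG and 13.4% for Poly(I:C). With the replicate number as a block the Poly(I:C) call was lost (adjusted p = 0.0554).

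Ccl7, which attracts monocytes through several receptors, followed Ccl2. It was 8.04, 10.50 and 8.43 in naive BMDM and 16.14, 15.70 and 15.88 in acute LPS, a rise of 6.92 ± 0.63 (121-fold, adjusted p = 0.00135). In acute CpG it was 11.35, 12.30 and 14.27, and in acute Poly(I:C) 11.41, 12.35 and 13.58. These groups did not overlap with naive BMDM either, but the differences of 3.65 ± 0.95 and 3.46 ± 0.82 missed the threshold in the fits of 2 groups (adjusted p = 0.0832 and 0.0692) and passed in the fit of 9 groups (0.00654 and 0.00977). In both stimulated groups replicate 3 was the highest, the replicate whose neutrophil marker sum was near 12.

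Ccl8, another chemoattractant of monocytes, was called with LPS and with no other ligand in the fits of 2 groups for the acute response. It was 9.85, 9.62 and 6.98 in naive BMDM and 12.55, 11.64 and 12.25 in acute LPS, a rise of 3.33 ± 0.77 (10.0-fold, adjusted p = 0.0243). Acute Poly(I:C) gave 12.19, 12.44 and 10.90, above all naive arrays, a difference of 3.03 ± 0.86 with an adjusted p of 0.105, which became 0.0451 with the replicate block and 0.00851 in the fit of 9 groups. Acute CpG (10.16, 10.32 and 9.77) overlapped with naive BMDM and differed by 1.27 ± 0.77 (adjusted p = 0.39). The spread within naive BMDM came from replicate 3, and within slides the CpG difference was 0.31, 0.70 and 2.78.

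Of the macrophage inflammatory proteins, Ccl4 rose with all 3 of LPS, CpG and Poly(I:C), and Ccl3 with 2 of them. Ccl4, at 13.24, 13.59 and 14.86 in naive BMDM, reached 18.47, 18.25 and 18.15 in acute LPS, 18.03, 18.16 and 18.38 in acute CpG and 17.49, 17.62 and 17.97 in acute Poly(I:C). The rises were 4.39 ± 0.43 (21.0-fold, adjusted p = 0.0016), 4.29 ± 0.44 (19.6-fold, adjusted p = 0.0104) and 3.80 ± 0.44 (13.9-fold, adjusted p = 0.0121). Ccl3, at 12.18, 12.49 and 14.64 in naive BMDM, rose by 4.37 ± 0.63 with LPS (17.58, 17.43 and 17.40, adjusted p = 0.00533) and by 4.27 ± 0.65 with CpG (17.49, 17.38 and 17.25, adjusted p = 0.0255). With the replicate number as a block, Ccl3 no longer passed with CpG (adjusted p = 0.0609). Acute Poly(I:C) gave Ccl3 values of 14.71, 15.09 and 16.72, all above the naive arrays by a smaller margin, with a difference of 2.41 ± 0.82 (adjusted p = 0.16) that passed with the replicate block (adjusted p = 0.0212). On each slide separately it was 2.53, 2.60 and 2.09.

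Ccl5, which attracts T cells and monocytes and is a classic interferon-responsive product of macrophages, rose from 11.33, 11.92 and 11.27 in naive BMDM to 18.60, 18.45 and 18.45 in acute LPS, 18.14, 18.19 and 18.00 in acute CpG and 18.24, 18.35 and 16.92 in acute Poly(I:C). The differences were 6.99 ± 0.23 (127-fold, adjusted p = 0.000142), 6.60 ± 0.23 (97.0-fold, adjusted p = 0.000891) and 6.33 ± 0.44 (80.4-fold, adjusted p = 0.00264). The Ccl5 probe ranked between 6 and 24 among all probes of an array in acute LPS and CpG. The highest value of the deposited table is 18.82, so that differences among stimulated groups were measured close to the upper end of the scale, although no spot of a member was saturated.

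Ccl17, a T cell attractant, had its highest acute mean with CpG, although acute Pam3CSK4 (7.70 and 4.38) overlapped with it and their levels differed by 1.19 ± 0.79 (adjusted p = 1). It was 2.99, 3.91 and 2.79 in naive BMDM, where only 1 of 3 arrays had it well above background, 5.67, 4.82 and 5.90 in acute LPS and 7.74, 7.61 and 6.36 in acute CpG. The rises were 2.23 ± 0.41 (adjusted p = 0.0112) and 4.01 ± 0.48 (adjusted p = 0.0153), and the levels with LPS and CpG differed by -1.77 ± 0.70 (adjusted p = 0.0941). In naive BMDM Ccl17 was well above background only on replicate 3, at 2.79, so both rises start near background and their size is uncertain. In acute Poly(I:C) it was 4.37, 4.99 and 3.59, well above background on 1 of 3 arrays, and was tested only in the fit of 9 groups, where it did not pass (difference 1.09, adjusted p = 0.365). Ccl22, the other CCR4 ligand, was well above background on 0 of 3 naive arrays and on 3 of all 25 arrays, namely 1 each of re-stimulated CpG, acute Pam3CSK4 and re-stimulated Poly(I:C), so no comparison of it was tested. Its values lay between 1.32 and 4.93, and replicate 3 was the lowest in every group with 3 replicates except acute LPS.

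Acute Pam3CSK4, with 2 arrays, gave Ccl3 values of 17.08 and 16.47, Ccl4 values of 17.16 and 16.95 and Ccl12 values of 8.57 and 7.08, all above the naive arrays. Ccl5 differed widely between the 2 arrays, at 17.40 in replicate 1 and 13.40 in replicate 3. In the fit of all 9 groups, which takes the spread from all arrays, Ccl12 (2.47, adjusted p = 0.0119), Ccl3 (3.67, adjusted p = 0.0039), Ccl4 (3.16, adjusted p = 0.00212), Ccl5 (3.89, adjusted p = 0.00275) and Ccl17 (2.81, adjusted p = 0.0432) passed, against 5.21% of all probes. Ccl17 was at 7.70 in replicate 1 and 4.38 in replicate 3, where it was not well above background, and 1 of 3 naive arrays had it above background. Ccl2, Ccl7 and Ccl8 did not pass (0.86, 0.53 and -0.53). Ccl2 was 12.74 and 11.68, Ccl7 9.59 and 9.45 and Ccl8 9.75 and 6.82, each within the range of naive BMDM or overlapping with it. Without naive replicate 3, the fit of 2 groups called 2 members beside 2.24% of all probes.

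**Figure D3:**
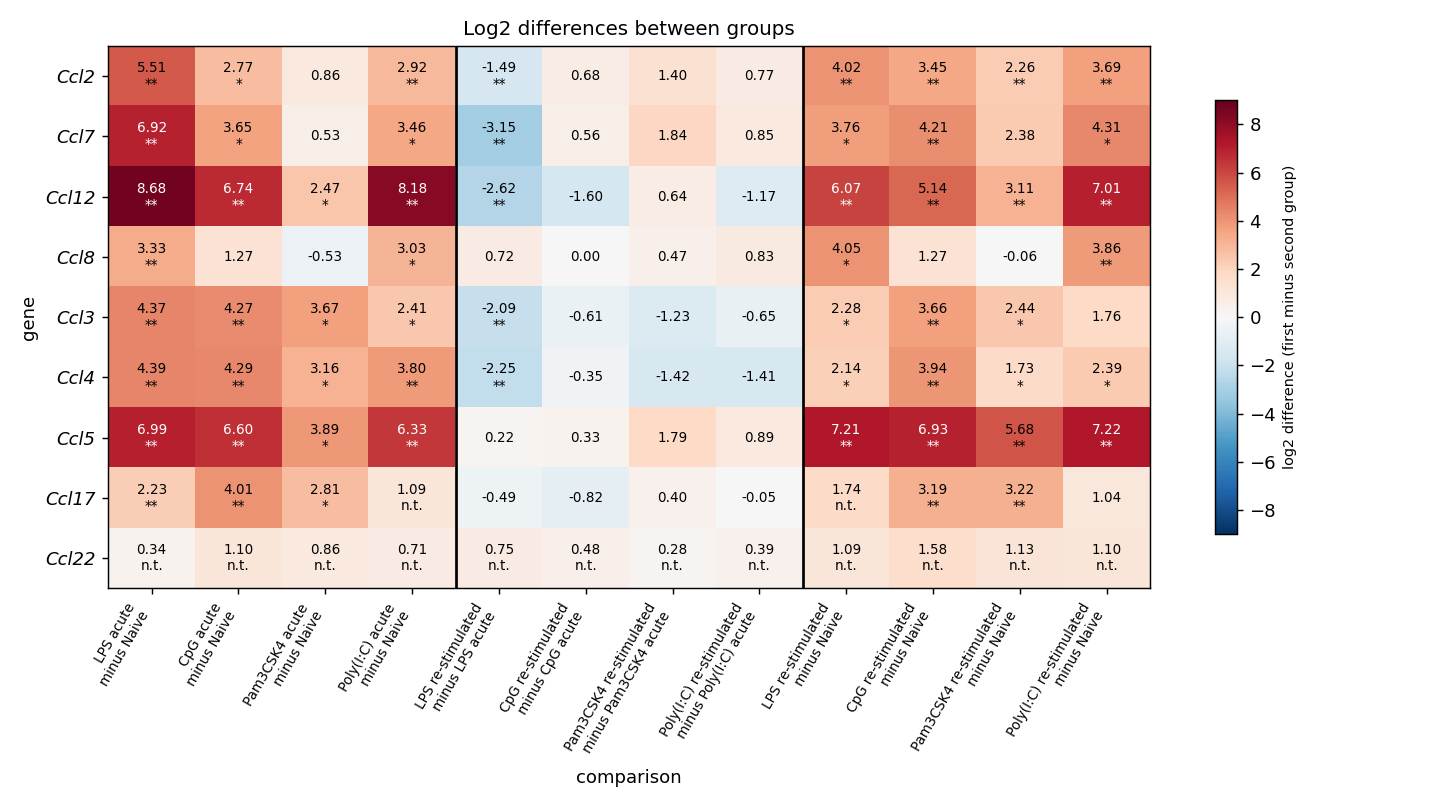
Log2 differences between group means for the 9 CC chemokines (rows) in 12 comparisons (columns), red where the group named first is higher and blue where it is lower. Cells with 2 stars passed in the fit of 2 groups, cells with 1 star in the fit of all 9 groups only, and n.t. marks cells not tested in the fit of 2 groups because of weak signal. Differences from naive range from -0.53 for Ccl8 with acute Pam3CSK4 to 8.68 for Ccl12 with acute LPS.

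The ligands were then set against each other as contrasts of acute levels in the fit of 9 groups. LPS gave higher levels than Pam3CSK4 for 5 of 8 members tested, than CpG for 3 and than Poly(I:C) for 3, and no member was lower with LPS. Of all probes, 17.6% were called in the contrast with Pam3CSK4 (8.7% higher with LPS), 15.5% in that with CpG (8.48% higher) and 10.7% in that with Poly(I:C) (5.4% higher). Ccl2 was higher with LPS than with CpG by 2.73 ± 0.55 (adjusted p = 0.00279), than with Poly(I:C) by 2.58 ± 0.55 (adjusted p = 0.00557) and than with Pam3CSK4 by 4.65 ± 0.61 (adjusted p = 5.82e-05). Ccl7 was likewise higher with LPS than with each other ligand, by 3.27 ± 0.86 over CpG (adjusted p = 0.0142), 3.46 ± 0.86 over Poly(I:C) (adjusted p = 0.0141) and 6.38 ± 0.96 over Pam3CSK4 (adjusted p = 0.000168). The slides and scan days of acute LPS cannot be told apart from these differences. Without acute CpG replicate 1, LPS exceeded CpG for 1 member (8.57% of all probes called), without acute Poly(I:C) replicate 1 it exceeded Poly(I:C) for 1 (5.95%), and without acute Pam3CSK4 replicate 3 it exceeded Pam3CSK4 for 3 (9.38%).

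Contrasts among the other 3 ligands compare arrays of the shared slides. Acute Pam3CSK4 had used arrays on slides 1 and 3 only, so its contrasts are not fully matched by slide. Ccl12 was lower with Pam3CSK4 than with Poly(I:C) by 5.71 ± 0.55 (adjusted p = 2.66e-05) and higher with CpG than with Pam3CSK4 by 4.27 ± 0.55 (adjusted p = 0.00324), where 0.0292% of all probes were called and 0.0227% were higher with CpG. Ccl8 and Ccl5 were also lower with Pam3CSK4 than with Poly(I:C), by 3.56 ± 0.82 (adjusted p = 0.0113) and 2.44 ± 0.69 (adjusted p = 0.0393), in a contrast that called 6.48% of all probes, with 4.06% of all probes lower with Pam3CSK4. Ccl17 was higher with CpG than with Poly(I:C) by 2.92 ± 0.70 (adjusted p = 0.0236), the only member called there, beside 3.92% of all probes called and 1.53% called higher with CpG. With the replicate number as a block Ccl2 (-2.14, adjusted p = 0.0293) and Ccl7 (-3.03, adjusted p = 0.043) were also called between Pam3CSK4 and Poly(I:C), beside 7.92% of all probes. The Ccl17 call was lost without acute CpG replicate 1 or 2 or acute Poly(I:C) replicate 1. The Ccl8 and Ccl5 values depended on the 2 acute Pam3CSK4 arrays. Without replicate 3 the differences between Pam3CSK4 and Poly(I:C) were -2.10 for Ccl8 and -0.44 for Ccl5 and neither was called, and without replicate 1 they were -5.02 and -4.43. Over 13 alternatives the Ccl8 call was lost in 2 and the Ccl5 call in 5. The CpG and Pam3CSK4 contrast called 0 members and 0.0162% of all probes without acute Pam3CSK4 replicate 3. Ccl3 and Ccl4 did not pass in any contrast of these 3 ligands, with differences of at most 1.86 ± 0.62 for Ccl3, CpG over Poly(I:C) (adjusted p = 0.108).

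On re-stimulation, 5 of 8 members were lower in LPS re-stimulated than in LPS acute BMDM, and none was higher, beside 34.2% of all probes called and 17% called lower. Ccl7 fell by 3.15 on the log2 scale (SE 0.23, 8.90-fold, adjusted p = 0.000597), from 16.14, 15.70 and 15.88 to 12.90 and 12.60. Ccl12 fell by 2.62 (SE 0.30, 6.14-fold, adjusted p = 0.00214), to 11.58 and 11.26, and Ccl2 by 1.49 (SE 0.28, 2.80-fold, adjusted p = 0.00994), to 15.44 and 15.30. Of the macrophage inflammatory proteins, Ccl4 showed a fall of 2.25 (SE 0.23, 4.75-fold, adjusted p = 0.00158) to 15.81 and 16.27 and Ccl3 a fall of 2.09 (SE 0.27, 4.25-fold, adjusted p = 0.0032) to 15.00 and 15.77. No group overlapped with its counterpart in these 5 genes, as was so for 30.7% of all probes in the same direction. In the fit of all 9 groups 4 of the 5 remained called and Ccl2 did not (adjusted p = 0.0726), beside 29.9% of all probes.

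Ccl8 and Ccl5 did not pass in this comparison. Ccl8 was 12.72 and 13.00, above every acute LPS array, with a difference of 0.72 (95% interval -0.03 to 1.46, adjusted p = 0.117). Re-stimulated arrays lay above all acute ones for 32% of all probes. Ccl5 was 18.72 on both arrays, rank 2 of all probes on each, with a difference of 0.22 (95% interval -0.23 to 0.68, adjusted p = 0.392). Ccl17 differed by -0.49 (95% interval -1.33 to 0.34, adjusted p = 0.306). The neutrophil marker sum also differed between these groups, at 15.81 and 15.84 against 11.68, 12.17 and 12.28.

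**Figure D4:**
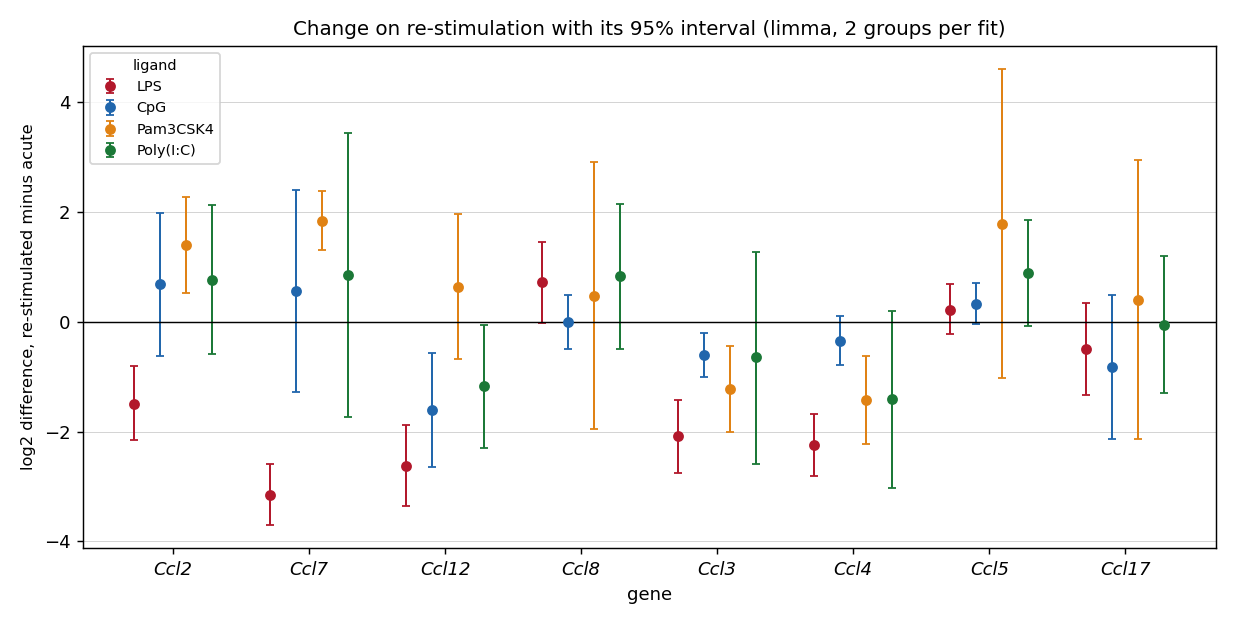
Log2 difference between re-stimulated and acute BMDM for 8 CC chemokines (x axis) and 4 ligands (colours), as estimates with 95% intervals from a fit of the 2 groups. With LPS the estimates for Ccl2, Ccl7, Ccl12, Ccl3 and Ccl4 lie between -3.15 and -1.49, and no interval of Ccl8 or Ccl5 lies apart from 0 for any ligand.

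With the other ligands no member passed on re-stimulation, while the fits called 3.56% of all probes with CpG, 0% with Pam3CSK4 and 4.93% with Poly(I:C). An unadjusted p under 0.05 was reached by 2 members with CpG, by 4 with Pam3CSK4 and by 1 with Poly(I:C), beside 21.6%, 13.6% and 26.2% of all probes, and the intervals allow changes of some size. For CpG, Ccl12 differed by -1.60 (95% interval -2.64 to -0.57, adjusted p = 0.0952), with values of 11.08, 10.00 and 10.40 below all acute arrays, and Ccl3 by -0.61 (-1.01 to -0.20, adjusted p = 0.103). Re-stimulated CpG arrays lay below all acute ones for 11.9% of all probes. For Pam3CSK4, Ccl7 was 11.50, 11.35 and 11.25 against 9.59 and 9.45 and Ccl2 13.72, 13.46 and 13.65 against 12.74 and 11.68, so both lay above the acute arrays without overlap (adjusted p = 0.142 and 0.222). Groups did not overlap for 16.2% of all probes in this direction and for 15.6% in the other. Ccl4 with Pam3CSK4 ran the other way, at 15.29, 16.15 and 15.45 against 17.16 and 16.95 (adjusted p = 0.21). For Poly(I:C), Ccl4 was 15.94 and 15.09 in replicates 1 and 2 but 17.83 in replicate 3, and the difference of -1.41 had an interval of -3.02 to 0.20. Without replicate 3 of every group, 3 members, Ccl12, Ccl8 and Ccl4, were called for Poly(I:C), beside 25.7% of all probes. With the slide as a random block 1 member each passed, Ccl12 for CpG beside 10.2% of all probes and Ccl4 for Poly(I:C) beside 16.5%. The share of all probes that kept 1 sign within slides 1, 2 and 3 was not counted, so the following is only a description. Some differences of members kept 1 sign there. With Poly(I:C) those above 0 were Ccl8 (1.00, 0.63 and 0.86), Ccl5 (0.58, 0.47 and 1.62) and Ccl2 (0.71, 0.21 and 1.39), and those below 0 were Ccl3 (-0.24, -1.35 and -0.36) and Ccl4 (-1.56, -2.54 and -0.14). With CpG those above 0 were Ccl5 (0.33, 0.21 and 0.44) and Ccl2 (1.34, 0.45 and 0.24), and those below 0 were Ccl12 (-0.33, -2.02 and -2.45), Ccl3 (-0.89, -0.52 and -0.41), Ccl4 (-0.12, -0.52 and -0.41) and Ccl17 (-0.93, -0.56 and -0.97).

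The change on re-stimulation was compared between ligands in the fit of 9 groups. LPS and Pam3CSK4 differed for 3 of 8 members, beside 7.2% of all probes called and 3.19% called with a lower change for LPS. Ccl7 changed by -3.15 with LPS and by 1.84 with Pam3CSK4, a difference of -5.00 ± 1.35 (adjusted p = 0.0335). For Ccl12 the changes were -2.62 and 0.64 (difference -3.26 ± 0.78, adjusted p = 0.02), and for Ccl2 -1.49 and 1.40 (difference -2.88 ± 0.87, adjusted p = 0.05, just under the threshold before rounding). Each of these rests on 2 re-stimulated LPS and 2 acute Pam3CSK4 arrays. Leaving out any 1 array of the 4 groups lowered the count to between 0 and 2, with 0 without acute Pam3CSK4 replicate 3 (3.91% of all probes called) or re-stimulated LPS replicate 2 (1.45%). Over 18 alternatives the Ccl2 call was lost in 15, the Ccl7 call in 10 and the Ccl12 call in 3. In the other 5 pairs of ligands 0 members passed in the limma fit, and at an unadjusted p under 0.05 there were 3 members between LPS and CpG beside 23.2% of all probes, 2 between LPS and Poly(I:C) beside 19.4%, 1 between CpG and Pam3CSK4 beside 1.13%, 0 between CpG and Poly(I:C) beside 10.3% and 1 between Pam3CSK4 and Poly(I:C) beside 11.1%. The shares of all probes called in these pairs were 6.35%, 3.61%, 0.00325%, 0.0357% and 0.101%. The largest difference among them was -4.01 ± 1.28 for Ccl7 between LPS and Poly(I:C) (adjusted p = 0.0891).

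Re-stimulated BMDM were also set against naive BMDM of the 3 shared slides, which leaves out the acute LPS arrays. The used arrays of re-stimulated LPS lay on slides 1 and 2 only, so its fit of 2 groups is not matched by slide. LPS re-stimulated BMDM had 3 of 7 members called higher (5.66% of all probes called, 3.27% higher), CpG 7 of 8 (13.1%, 6.65% higher), Pam3CSK4 4 of 8 (5.36%, 2.61% higher) and Poly(I:C) 4 of 8 (9.03%, 4.79% higher), and no member was lower. Ccl5 was among the called members for each ligand, higher by 7.21 ± 0.27 for LPS (adjusted p = 0.00796), 6.93 ± 0.22 for CpG (adjusted p = 0.000387), 5.68 ± 0.37 for Pam3CSK4 (adjusted p = 0.00736) and 7.22 ± 0.24 for Poly(I:C) (adjusted p = 0.00223). Its values of 18.82, 18.82 and 18.55 in re-stimulated Poly(I:C) ranked 1, 1 and 3 among all probes of their arrays. Ccl12 was likewise called for all 4 ligands, by 6.07 ± 0.42, 5.14 ± 0.42, 3.11 ± 0.42 and 7.01 ± 0.49 in the same order of ligands, and Ccl2 by 4.02 ± 0.54, 3.45 ± 0.52, 2.26 ± 0.45 and 3.69 ± 0.66.

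Ccl3 and Ccl4 were called higher than naive in re-stimulated CpG (3.66 ± 0.64 and 3.94 ± 0.43) and not for the other ligands in these fits. For LPS all arrays of both genes lay above the naive ones (differences of 2.28 ± 0.83 and 2.14 ± 0.54), as was so for 23.9% of all probes. With the replicate number as a block, which matches the slides here, Ccl3 (3.05, adjusted p = 0.0134), Ccl4 (2.63, adjusted p = 0.0127) and Ccl8 (3.13, adjusted p = 0.0134) passed, beside 17% of all probes. Within slides 1 and 2 the LPS difference was 2.82 and 3.28 for Ccl3, 2.57 and 2.68 for Ccl4 and 2.87 and 3.39 for Ccl8. Ccl7 was called for CpG as well, by 4.21 ± 0.73 (adjusted p = 0.0215). Ccl8 was called for Poly(I:C), by 3.86 ± 0.85 (adjusted p = 0.0461), and stood at 4.05 ± 0.94 for LPS (adjusted p = 0.0749), 1.27 ± 0.76 for CpG and -0.06 ± 0.90 for Pam3CSK4. Ccl17 was called for CpG (3.19 ± 0.52, adjusted p = 0.019) and Pam3CSK4 (3.22 ± 0.52, adjusted p = 0.0324), and differed by 1.04 ± 0.50 for Poly(I:C) (adjusted p = 0.24). These counts moved with the arrays used. With the replicate block, Pam3CSK4 kept 0 of its 4 calls (adjusted p between 0.0546 and 0.0819, 0.0215% of all probes called), the CpG call of Ccl7 was lost (adjusted p = 0.0584) and so was the Poly(I:C) call of Ccl2 (adjusted p = 0.0627). Without naive replicate 3, re-stimulated LPS had 7 members called in place of 3, beside 25% of all probes. Leaving out either of its own arrays leaves 1 array in that group, so its calls could not be judged.

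Over all 9 groups the members fell into distinct orders of their own levels. Ccl2 ran from acute LPS (16.86 ± 0.40, mean ± SD) through re-stimulated LPS (15.37 ± 0.10), the CpG and Poly(I:C) groups (14.12 to 15.04) and re-stimulated Pam3CSK4 (13.61 ± 0.14) to acute Pam3CSK4 (12.21 ± 0.74) and naive BMDM (11.35 ± 0.89). Neighbours in this order overlapped except acute with re-stimulated LPS and re-stimulated with acute Pam3CSK4. Ccl8 instead was highest in re-stimulated LPS (12.86 ± 0.20) and re-stimulated Poly(I:C) (12.67 ± 0.80), followed by the acute groups of the same ligands, all above the CpG, naive and Pam3CSK4 groups. Ccl3 was highest in acute LPS and acute CpG (17.47 ± 0.10 and 17.37 ± 0.12), above re-stimulated CpG and acute Pam3CSK4 (both 16.77), and lowest in re-stimulated Poly(I:C) (14.86 ± 1.35) and naive BMDM (13.10 ± 1.34). Ccl17 was highest in acute CpG (7.24 ± 0.76), re-stimulated Pam3CSK4 (6.45 ± 0.87) and re-stimulated CpG (6.42 ± 0.90), and every neighbour in its order overlapped. Across the 9 group means, which share arrays and normalization and are given only as a description, Pearson's r was 0.98 between Ccl2 and Ccl7, 0.91 between Ccl3 and Ccl4, 0.89 between Ccl7 and Ccl12, 0.81 between Ccl12 and Ccl8, 0.05 between Ccl8 and Ccl3 and -0.30 between Ccl8 and Ccl17.

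The other CC chemokine ligands were counted in the same way. Of 11 such genes with a probe, 7 were tested in the acute LPS comparison, with 1 higher and 1 lower, beside 26.5% of all probes called, and their median difference was -0.37 against -0.01 over all probes. Ccl9, a macrophage-expressed CCR1 ligand that lies near Ccl3 and Ccl4, rose in acute LPS by 1.02 (adjusted p = 0.0273, or 0.0574 in the fit of 9 groups) and in acute CpG by 1.91 (adjusted p = 0.0335), at 17.13, 17.72 and 16.55 against 14.92, 15.35 and 15.38 in naive BMDM. Between re-stimulated and acute LPS 2 of 7 were called higher and 2 lower, beside 17.2% and 17% of all probes. Ccl9 fell, by 1.25 with LPS (adjusted p = 0.0304) and by 2.10 with CpG (adjusted p = 0.0385), to 14.89, 14.76 and 15.47 in re-stimulated CpG. Ccl6, another macrophage CCR1 ligand, was lower in re-stimulated Poly(I:C) than in naive BMDM (-1.76, adjusted p = 0.0373), with values of 13.79, 13.79 and 13.92 against 15.90, 16.07 and 14.81. Ccl25, a ligand of Ccr9, rose with LPS re-stimulation by 1.33 (adjusted p = 0.00802), from 8.28, 7.86 and 8.40 to 9.54 and 9.49. Ccl27a, a skin-associated chemokine, fell by 1.39 (adjusted p = 0.0132), from 7.62, 7.53 and 7.02 to 6.28 and 5.73, and was also lower there than in naive BMDM (-1.93, adjusted p = 0.0492). Ccl24, an eosinophil attractant, was not well above background on any acute LPS array and was at least 2.69-fold lower there than in naive BMDM (adjusted p = 0.00891), a call lost in the fit of 9 groups (adjusted p = 0.237). It was at least 3.50-fold higher in re-stimulated than in acute LPS (adjusted p = 0.00293, or 0.194 in the fit of 9 groups) and at least 3.95-fold lower in re-stimulated Poly(I:C) than in naive BMDM (adjusted p = 0.039, or 0.1). Such a bound sets the mean of the measured group against the higher of the dim probe's signal and the lowest signal well above background on the same arrays.

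Among 15 CC chemokine receptors with a probe, 8 to 10 were tested in a comparison. Ccrl2, an atypical receptor of chemerin that does not signal to migration, rose with LPS by 4.64 (adjusted p = 0.000281), with CpG by 3.50 (adjusted p = 0.00666) and with Poly(I:C) by 3.89 (adjusted p = 0.0172), and fell in re-stimulated LPS by 2.12 (adjusted p = 0.00327). Its values were 9.04, 8.59 and 9.05 in naive BMDM, 13.72, 13.60 and 13.29 in acute LPS and 11.06 and 11.77 in re-stimulated LPS, with no overlap between the groups. Ccr9, known from gut-homing lymphocytes, was higher in acute LPS by 2.53 (adjusted p = 0.00186) than in naive BMDM, where 1 of 3 arrays had it well above background. Ccr8, known from T cells, rose in acute LPS by 1.39 (adjusted p = 0.0302), from 4.77, 4.14 and 3.61 to 5.34, 5.94 and 5.40. Ccr3, the eotaxin receptor, fell on re-stimulation with CpG by 1.73 (adjusted p = 0.045, or 0.27 in the fit of 9 groups), from 9.54, 10.32 and 9.11 to 7.88, 8.13 and 7.75.

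Receptors were also compared between re-stimulated and acute LPS, where 17.2% of all probes were called higher. Ccr7, the receptor that guides cells to lymph nodes, was 10.49 and 10.85 against 3.73, 3.82 and 3.95, of which 1 of 3 was well above background (a rise of 6.84, adjusted p = 0.000129), but it was also 8.01 and 8.38 in naive replicates 1 and 2 and 3.07 in naive replicate 3. Ccr2, the receptor of Ccl2, was not well above background on any acute LPS array and at least 16.0-fold higher in re-stimulated LPS (7.03 and 7.23, adjusted p = 0.000524), with 8.88, 9.47 and 4.23 in naive BMDM. Ccr1 (at least 3.47-fold, adjusted p = 0.0183) and Ccr1l1 (a rise of 3.18 from acute LPS, where 1 of 3 arrays was well above background, adjusted p = 0.005) were also higher. In the fit of all 9 groups Ccr7 remained called (adjusted p = 0.0352), whereas Ccr2, Ccr1 and Ccr1l1 did not (adjusted p = 0.0952, 0.206 and 0.0778). Naive BMDM had Ccr1l1 at 6.58, 6.93 and 3.50 and Ccr1 at 3.36, 4.47 and 2.22. In Ccr7, Ccr2, Ccr1 and Ccr1l1, replicate 3 was the lowest array of every group that had it, apart from acute LPS, where all arrays were low, and this is the order of the neutrophil sums above. The part of this replicate pattern in the LPS comparison was not tested.

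**Figure D5:**
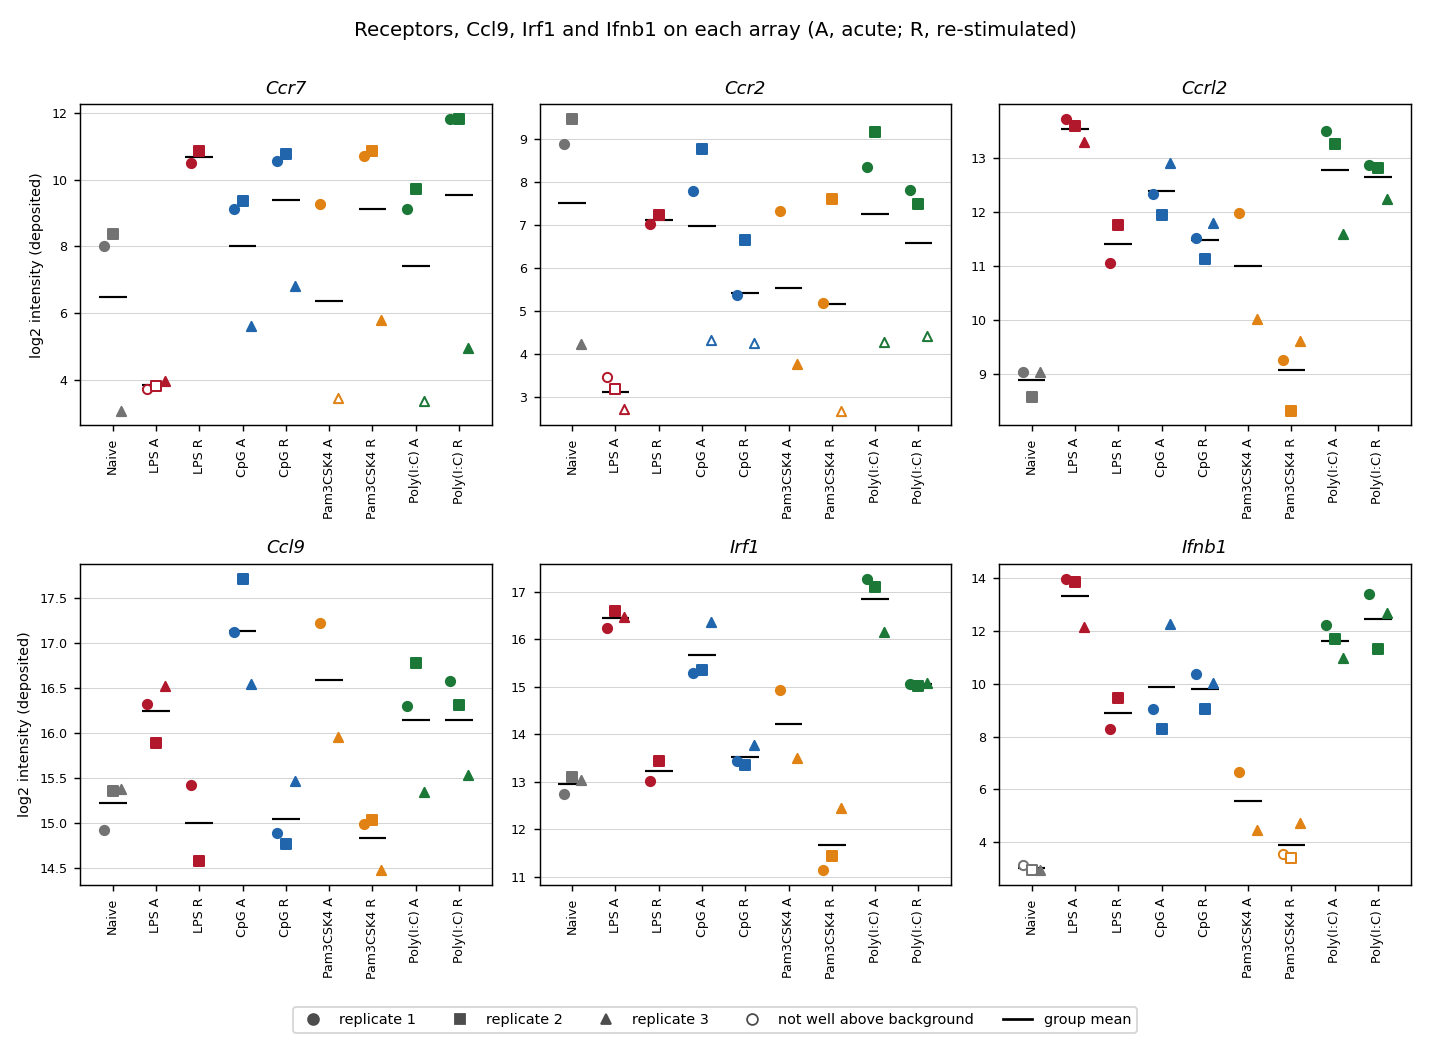
Deposited log2 intensity (y axis, separate scale for each gene) of the receptors Ccr7, Ccr2 and Ccrl2, the chemokine Ccl9 and the regulators Irf1 and Ifnb1 on each of the 25 arrays by group (x axis), with a symbol for each replicate, open where not well above background, and a bar for the group mean. Ccr7 and Ccr2 are low on all acute LPS arrays and on replicate 3 of the other groups, whereas Ccrl2, Irf1 and Ifnb1 lie above all naive arrays in acute LPS.

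Regulators known to control these chemokines were also counted. Of 23 NF-κB, IRF and STAT pathway genes, 12 were higher and 2 lower in acute LPS (all 23 tested), 8 higher in acute CpG and 6 higher in acute Poly(I:C), and in re-stimulated LPS 11 were lower and 3 higher than in acute LPS. Of all probes tested, 13.2% were higher and 13.2% lower in acute LPS, 3.09% higher in acute CpG, 3.8% higher in acute Poly(I:C), and 17% lower and 17.2% higher in re-stimulated LPS. Ifnb1, the gene of interferon β, was 3.13, 2.95 and 2.93 in naive BMDM, where 1 of 3 arrays had it well above background. In acute LPS it was 13.99, 13.86 and 12.14, a rise of 10.33 (adjusted p = 0.00028) whose size is uncertain because it starts near background. After re-stimulation it was 8.30 and 9.47 (a fall of 4.45, adjusted p = 0.00409). Irf1, a transcription factor induced by NF-κB and interferon, rose by 3.48 with LPS (adjusted p = 0.000399), by 2.71 with CpG (adjusted p = 0.0163) and by 3.89 with Poly(I:C) (adjusted p = 0.00516). It fell on re-stimulation with all 3, by 3.21 (adjusted p = 0.000591), 2.15 (adjusted p = 0.031) and 1.79 (adjusted p = 0.0371). Rel, an NF-κB subunit, was not well above background on either re-stimulated LPS array and was at least 15.6-fold lower than in acute LPS (adjusted p = 0.0026), and Nfkbiz, an NF-κB cofactor, fell by 3.23 (adjusted p = 0.000999). With CpG, Nfkb1, the gene of the p50 subunit, fell by 1.64 (adjusted p = 0.0155) and Tnfaip3, the feedback inhibitor known as A20, by 1.31 (adjusted p = 0.0453). Irf7, the interferon-induced IRF, instead rose on re-stimulation with LPS by 2.22 (adjusted p = 0.00282) and with Poly(I:C) by 2.05 (adjusted p = 0.0424).

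Genes with the most similar course over the 9 group means were found by Pearson's r among 13531 probes with a gene name whose group means ranged over at least 1 on the log2 scale. For Ccl3 they were Tnf (r = 0.989), the inflammatory cytokine, Pfkp (0.983), a glycolytic phosphofructokinase, and Olfr94 (0.982). For Ccl12 they were Ccnyl1 (0.994), Peli1 (0.987), a ubiquitin ligase of TLR signalling, and Zbtb49 (0.98), and for Ccl5 Jak2 (0.98), the cytokine receptor kinase, Senp1 (0.978) and Ptpn2 (0.963). Ccl4 was closest to Rapgef2 (0.975) and then to Lcp2 (0.96), Ccl2 to Casz1 (0.968), Ccl7 to Gcnt2 (0.978), Ccl8 to 4933409K07Rik (0.984) and Ccl17 to Has1 (0.959), a hyaluronan synthase. With 9 means these values are descriptions of likeness and have no test.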

How the data were processed

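RNA of 27 BMDM cultures was hybridised to Agilent 1-colour arrays with 62976 spots, of which 55681 probes are not controls. The authors made the deposited log2 values with limma, by an RMA background step followed by quantile normalization, and 25 arrays have such values, from 0.943 to 18.8. Per the file headers, the deposited scanner files hold spot intensity and the mark for spots well above background, and were used for detection, slides and alternatives. Values made again from the 27 files differed from the deposited ones by a median of 0.0355.

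Groups came from the sample labels. limma 3.58.1 in R 4.3.3 was fitted to each pair of groups over the probes that the scanner marked well above background on 2 or more arrays of a group. Differences between ligands were contrasts in 1 fit of 9 groups. A call needed a Benjamini-Hochberg adjusted p under 0.05 and at least 1.5-fold, and the code was tested on simulated data. The number of arrays limits the precision.

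Named were all 9 members, genes of the lists taken from the at most 6 largest called ones without overlap between groups in a comparison, and the 3 genes most like each member. A result for 1 receptor of the list is not reported here. Members and lists were chosen with earlier results of these data known. TATAAA and the shared promoter runs were chosen after the windows were seen, as was the alternative without replicate 3. Over 30814 probes, deviations of same-numbered arrays correlated by over 0.1 in every one of the 3 pairs for CpG and Poly(I:C) in all comparisons. The same held for re-stimulated Pam3CSK4 against naive BMDM, and in these comparisons the numbers match slides. Blocked values of members are given where the block changed a call. The other ligands, receptors and regulators were not fitted with the block, so their CpG and Poly(I:C) calls come from unblocked fits. Acute LPS lay on other slides and shares only a number with other groups (0.01 to 0.10). Re-stimulated LPS with naive BMDM (0.08), and acute Pam3CSK4 with naive (0.49 to 0.52) and re-stimulated BMDM (0.22), share slides in only 2 pairs, too few for this check.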

Additional observations from a re-analysis of the deposited data

Results flagged for a closer look

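Ligand differences that passed in the fit of 9 groups were looked at again. Between acute LPS and acute CpG, the log2 level was higher with LPS by 2.73 for Ccl2, 3.27 for Ccl7 and 1.94 for Ccl12. Between acute LPS and acute Pam3CSK4 it was higher with LPS by 4.65 for Ccl2, 6.38 for Ccl7, 6.21 for Ccl12, 3.86 for Ccl8 and 3.10 for Ccl5. Over 13 alternatives the Ccl8 value ranged from 2.35 to 5.32 and the Ccl5 value from 1.1 to 5.1, and each call was lost in 1. Between acute LPS and acute Poly(I:C) the log2 level was higher with LPS by 2.58 for Ccl2, 3.46 for Ccl7 and 1.96 for Ccl3. This Ccl3 call was lost in 8 of 14 alternatives. Among the ligands that share slides, Ccl12 was higher with CpG than with Pam3CSK4 by 4.27 and Ccl17 higher with CpG than with Poly(I:C) by 2.92. Pam3CSK4 minus Poly(I:C) was -5.71 for Ccl12, -3.56 for Ccl8 and -2.44 for Ccl5. The change on re-stimulation with LPS minus that with Pam3CSK4 was -2.88 for Ccl2, -5.00 for Ccl7 and -3.26 for Ccl12.

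The 2 arrays without deposited values were looked at after all 27 arrays were normalized again by quantiles from the scanner files. On these arrays 92.4% (re-stimulated LPS replicate 3) and 99.9% (acute Pam3CSK4 replicate 2) of spots were marked well above background. That mark therefore hardly separates signal from background there, and even Ccl22 at 2.30 and Ccl17 at 2.64 carried it. The share of all probes above every naive array was not counted, so the values below are only descriptions. Re-stimulated LPS replicate 3 exceeded every naive array at log2 values of 14.92 for Ccl2, 12.86 for Ccl7, 10.14 for Ccl12, 11.24 for Ccl8, 15.54 for Ccl3, 16.24 for Ccl4 and 18.39 for Ccl5. Acute Pam3CSK4 replicate 2 did so at 13.36 for Ccl2, 17.14 for Ccl3, 17.15 for Ccl4, 17.10 for Ccl5 and 2.52 for Ccl22, the last against a highest naive value of 2.42. It did not do so for Ccl12 (4.03 against a highest naive value of 6.08), Ccl7 (7.39 against 10.57), Ccl8 (4.70 against 9.94) and Ccl17 (2.95 against 4.15). Re-stimulated LPS replicate 3 did not for Ccl17 (2.64 against 4.15) and Ccl22 (2.30 against 2.42).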

How the results depend on the processing

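Values made again from the array files, and calls by adjusted p alone, kept every count of members called within 1.5 times. When arrays were scaled to a common median instead of by quantiles, the counts became 3 for acute Pam3CSK4 (0 before), 7 for acute Poly(I:C) (4), 1 for Pam3CSK4 re-stimulated against acute (0), 7 each for re-stimulated LPS (3), Pam3CSK4 (4) and Poly(I:C) (4) against naive, 1 for acute LPS against CpG (3), 2 for acute CpG against Poly(I:C) (1), and 0 for the change with LPS against Pam3CSK4 (3). This scaling moved the median of all probes by 0.11 to 0.78 in the comparisons of 2 groups, and the share of calls that were higher from 49.9% to 67.6% in acute LPS, from 54.0% to 92.3% in acute CpG and from 63.0% to 91.9% in acute Poly(I:C). The fit of all 9 groups gave 5 for acute Pam3CSK4 (5.21% of all probes called), 7 for acute Poly(I:C) (13.4%) and 7 for re-stimulated LPS against naive (16.3%). The slide as a random block (correlation 0.22) gave 5, 7 and 7 for these, 1 each for CpG and Poly(I:C) re-stimulated against acute (0 before), 7 each for re-stimulated Pam3CSK4 and Poly(I:C) against naive, 2 for acute CpG against Poly(I:C) and 5 for acute Pam3CSK4 against Poly(I:C) (3). The processed signal gave 6 for re-stimulated LPS against naive. All 27 arrays gave 1 for acute LPS against CpG, 1 for acute LPS against Poly(I:C) (3) and 0 for acute CpG against Poly(I:C). No detection filter gave 2 for re-stimulated Pam3CSK4 against naive and 1 for the change with LPS against Pam3CSK4. The share of all probes called moved with the setting as well. A count in this section without its share therefore cannot be read as a result about the members.

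With the replicate block, counts became 6 for re-stimulated LPS against naive (3), 0 for re-stimulated Pam3CSK4 against naive (4) and 5 for acute Pam3CSK4 against Poly(I:C) (3). Beside the calls given with their results, the block lost Ccl17 in acute LPS (adjusted p = 0.0507) and gained Ccl8, Ccl3 and Ccl4 in re-stimulated LPS against naive (0.0134, 0.0134 and 0.0127). It also gained Ccl8 for acute LPS against CpG (0.0114), and Ccl2 and Ccl7 for acute Pam3CSK4 against Poly(I:C) (0.0293 and 0.043), and changed no other call of a member. Genes of the other lists were not run with it.

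Leaving out 1 array at a time gave 7 to 8 members with acute LPS, 2 to 5 with CpG, 0 to 2 with Pam3CSK4 and 2 to 5 with Poly(I:C). Re-stimulated against acute gave 4 to 5, 0 to 0, 0 to 0 and 0 to 1 in the same order, and re-stimulated against naive 0 to 7, 3 to 7, 1 to 6 and 2 to 4. Acute contrasts gave 1 to 3 for LPS against CpG, 3 to 5 for LPS against Pam3CSK4, 1 to 3 for LPS against Poly(I:C), 0 to 2 for CpG against Pam3CSK4, 0 to 2 for CpG against Poly(I:C) and 1 to 3 for Pam3CSK4 against Poly(I:C). Contrasts of the change gave 0 to 2 for LPS against CpG, 0 to 2 for LPS against Pam3CSK4, 0 to 1 for CpG against Pam3CSK4 and 0 to 0 for the rest. The arrays that moved a count of 2 groups by over 1.5 times were naive replicates 1 and 2 (3 each) and acute CpG replicates 1 and 2 (2 each) for acute CpG, naive replicate 3 (2) for acute Pam3CSK4, acute replicates 1 and 2 (2 each) for acute Poly(I:C) and re-stimulated replicate 3 (1) for Poly(I:C) re-stimulated against acute. Against naive they were naive replicate 3 (7) for LPS, naive replicate 1 (4) and CpG replicates 1, 2 and 3 (3, 3 and 4) for CpG, naive replicates 1 and 2 (1 and 2) and Pam3CSK4 replicates 1 and 2 (1 each) for Pam3CSK4, and replicates 1 and 2 of both groups (2 each) for Poly(I:C). Leaving out a re-stimulated LPS or acute Pam3CSK4 array left 1 array in that group, so the lowest counts of 2 groups there cannot be read as lost calls.

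Without replicate 3 of every group, chosen after seeing the data and leaving acute Pam3CSK4 with 1 array assumed to vary like the others, counts were 4 for acute Pam3CSK4, 1 for Pam3CSK4 and 3 for Poly(I:C) re-stimulated against acute, and 7 for re-stimulated LPS against naive. The acute contrasts gave 5 for LPS against CpG, 0 for CpG against Pam3CSK4, 4 for CpG against Poly(I:C) and 5 for Pam3CSK4 against Poly(I:C), and those of the change 4 for LPS against CpG and 1 each for LPS, CpG and Pam3CSK4 against Poly(I:C). There the change of Ccl5 with Pam3CSK4 minus that with Poly(I:C) was -1.09 (adjusted p = 0.0311) in place of 0.90 (adjusted p = 0.784), the only value that was called against its first direction under these alternatives. Leaving out 1 array at a time moved it from -1.10 (without acute Pam3CSK4 replicate 3) to 2.90 (without replicate 1), with no call. The cause of these shifts was not tested. Counts given here without a share of all probes called cannot be read as results about the members. Another probe per gene was not run, since each member has 1. Probes near background, Ccl22 and in part Ccl17, limit what the arrays can show.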
